A study of Mus musculus with 4 samples.

Results

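Integrins, selectins, cadherins, laminins and their partners were examined in B6.2.16 CD8 T cells from mice, in a naive and a memory preparation. Probe sets were taken by gene symbol, from symbols that start with Itga, Itgb, Sele, Selp, Icam, Pecam, Cdh, Lama, Lamb or Lamc, or that equal Cd44, Spn, Cd2, Cd48, Glycam1 or Madcam1. On 2 Affymetrix mouse chips, A and B, this gave 70 of 13179 probe sets and 54 symbols. Of these, 11 probe sets read 7 selenium-related genes whose names match only in spelling (Selenbp1, Selenof, Selenok, Selenop, Selenos, Selenot and Selenow). The remaining 59 probe sets read 47 adhesion genes, out of 6137 genes with a single symbol. There were 27 adhesion genes on the A chip, 25 on the B chip and 5 on both.

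The transgenic T cell receptor of these mice recognises HY, an antigen of male cells. All donors and hosts were female and RAG1-deficient, so they form no other T cells and no B cells, while their myeloid, NK, stromal and endothelial cells are still present. The naive cells were purified from lymph nodes, with a stated purity above 85%. The memory cells started as splenocytes cultured for 4 days with HY peptide. They were then transferred, and after 200 days they were taken from spleens and lymph nodes with magnetic beads, at a stated purity above 80%. No ages are given in the labels, nor how many animals were pooled. There was 1 array per group and chip, so no error, p-value or test could be given. Each difference compares 1 pair of arrays. Organ, culture, transfer, host and sorting differed together with the group and cannot be told apart from it. In bulk RNA, fewer cells of a type and less RNA per cell cannot be told apart either.

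Integrins are pairs of an alpha and a beta chain that hold leukocytes to other cells and to matrix, and their grip is switched on from inside the cell. Selectins catch sugar-bearing mucins such as PSGL-1 and start rolling on vessel walls, after which integrins bind ICAM and VCAM proteins and arrest the cell. Cadherins join cells of the same kind and laminins build basement membranes. In T cells, adhesion proteins such as CD44 and several integrins are known to be more abundant after antigen experience.

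The values were linear intensities, some of them negative. Across 6540 gene probe sets of the B chip its pair of arrays had a Spearman correlation of 0.85, and across 6529 of the A chip one of 0.10. Over 398 genes on both chips the naive A column correlated with the naive B column at 0.072, against 0.45 for the memory columns. These correlations are descriptions across genes, which are not replicates. The naive A column was therefore not read as gene levels, and groups were compared on the B chip alone. On that chip both arrays were scaled to a common trimmed mean, and signals under 423 (the floor) were treated as noise. A gene counted as measured when its higher array lay above the floor, and it was called when that array reached 846 and the ratio was at least 2-fold. On the memory A array the noise limit was 184. Every adhesion gene above its limit on either chip was read by a probe set with a class letter in its name (s, g or f), by which the manufacturer marks probes that can match more than 1 transcript. This is not particular to these genes: without such probe sets 50 genes of the B chip were measured, against 462 with them.

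On the B chip 8 of the 25 adhesion genes were measured, which is 32.0%, against 26.2% of all 1760 genes. They were the integrin chains Itga3, Itgb1 and Itgb2, the selectin ligand Selplg, the immunoglobulin-family genes Cd48 and Icam1, the cadherin Cdh1 and the laminin chain Lama3. Of these, 1 was called higher in memory, Itgb1, and 0 were called lower. Among all 462 measured genes, 8.87% were called higher and 8.66% lower, so 1 called gene among 8 lies near the background and is not read as a result about these genes. Only 3 adhesion genes, Itgb1, Itgb2 and Selplg, were bright enough to be called at all. Of the 249 genes that bright on the chip, 16.5% were called higher and 16.1% lower. The median log2 ratio of the 8 was 0.08, beside a median of -0.12 and quartiles of -0.45 and 0.33 over all measured genes. The split of all calls depended on the scaling: it was 41 higher to 40 lower as reported, 51 to 32 with median-ratio scaling, 52 to 25 with quantile normalization and 45 to 21 with intensity-dependent normalization.

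**Figure D1:**
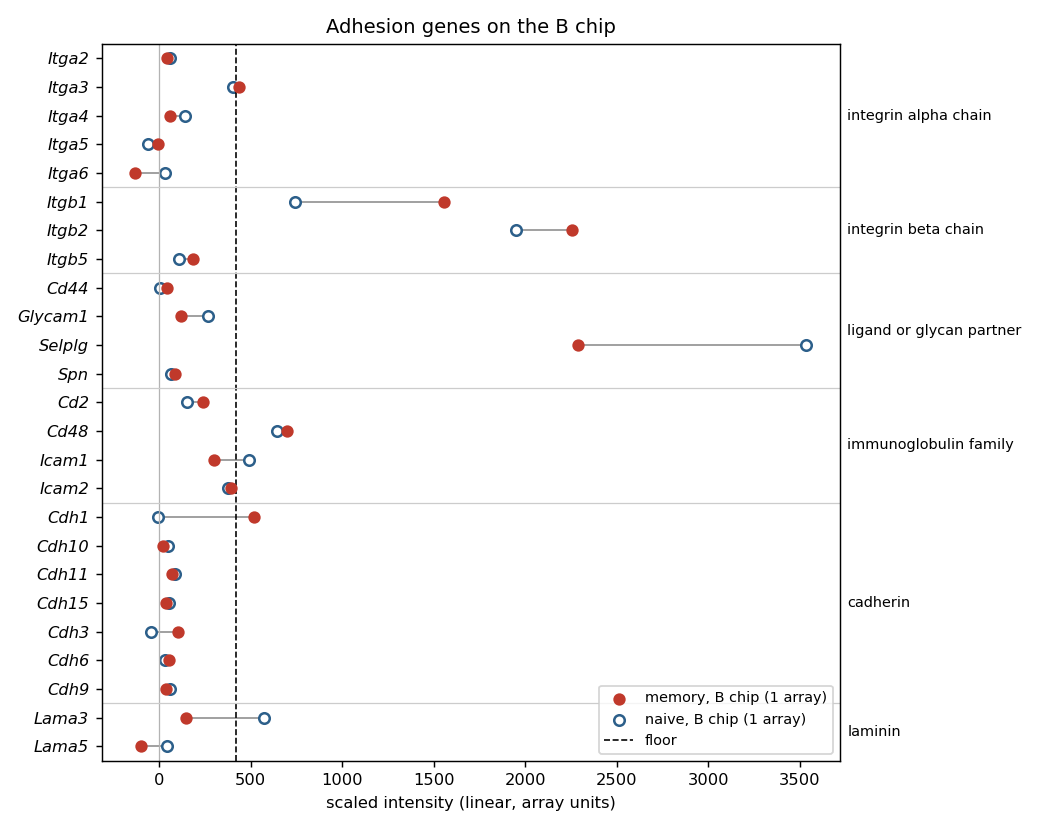
Scaled intensity (linear, x axis) of the 25 adhesion genes on the B chip, by role; filled points are the memory array, open points the naive array, and the dashed line is the floor of 423. Itgb1, Itgb2 and Selplg lie well to the right of the floor on both arrays, and 17 genes lie under it on both.

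Of 3 integrin beta chains on the B chip, 2 were measured. Itgb1, the beta-1 chain shared by the receptors for fibronectin, laminin, collagen and VCAM-1, read 1554 in memory and 741 in naive. Both values lay above the floor, and the memory array was 2.10-fold higher, a log2 ratio of 1.07. The call held under each of the other scalings (1.05 to 1.22) and was lost with the floor doubled, where the ratio became 0.88.

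Itgb2, the beta-2 chain of LFA-1 and of the other leukocyte integrins, read 2258 in memory and 1952 in naive. The arrays were close, with a log2 ratio of 0.21. Both preparations thus held a clear Itgb2 signal that differed by less than 2-fold under all settings in which it was measured. Itgb5, a partner of the alpha-v chain, was under the floor on both arrays at 188 and 107.

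**Figure D2:**
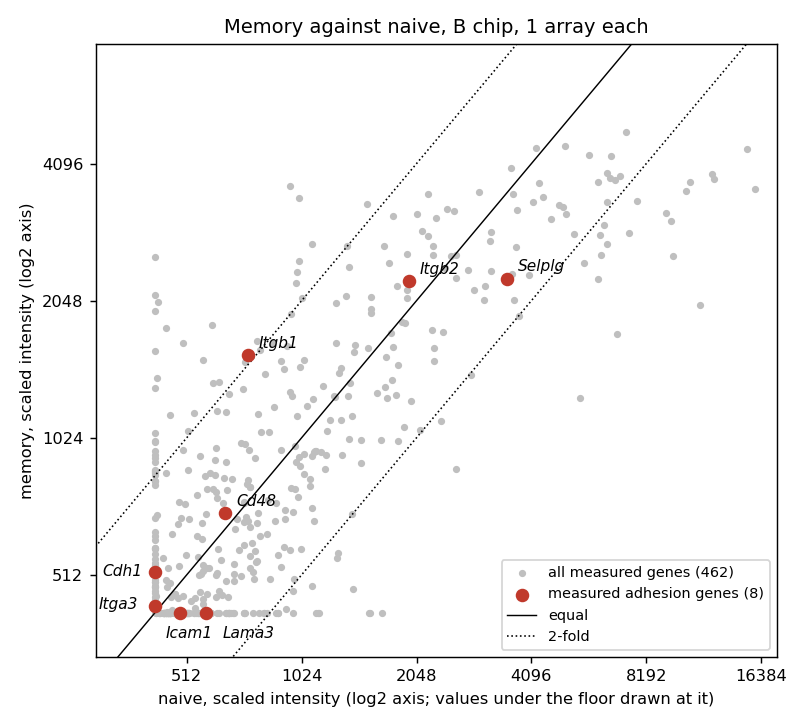
Memory (y axis) against naive (x axis) scaled intensity of the 462 measured genes of the B chip on log2 axes, with values under the floor drawn at it; the 8 measured adhesion genes are in red and the dotted lines mark 2-fold. Itgb1 lies just above the upper 2-fold line, and the other 7 lie between the lines.

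Of the alpha chains on the B chip, 1 of 5 was measured. Itga3, which pairs with beta-1 to bind laminin, read 438 in memory and 402 in naive through one probe set, the naive value under the floor. A companion probe set of the same sequence entry read 120 and 395. The first gave nearly equal arrays close to the floor, while the second was under it on both, so no difference in Itga3 was detectable.

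Itga4, which forms VLA-4 with beta-1 and a gut-homing receptor with beta-7, had 3 probe sets in all. They read 62 and 144, and 4 and 42, in memory and naive on the B chip, and 35 in memory on the A chip. All of these are under the limits, so the alpha-4 chain could not be followed here. Itga2, Itga5 and Itga6, the collagen, fibronectin and laminin partners of beta-1, read 43.7, -7.94 and -129 in memory. Their naive values were 61.5, -58.4 and 33.2, also under the floor. None of the beta-1 partners on this chip thus gave a detectable difference.

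Among the chains read on the memory A array, 2 of 6 alpha and 1 of 2 beta chains were above the noise limit. Itgb7, the beta chain of the gut-homing integrins, read 486, and Itga3 read 411. Itgav, the alpha-v chain of receptors for vitronectin and related ligands, read 344 through one probe set and -3 through another. These 3 were the only adhesion genes above the limit among 27, or 11.1%, where 29.5% of all 4775 genes of the chip passed it. For Itgb7 and Itgav no naive level is available, so nothing can be said of a difference.

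The chains that did not pass on the memory A array include some that CD8 T cells are known to carry. Itgal, the alpha chain of LFA-1, read -16, although its partner Itgb2 was well above the floor on the memory B array. Itgae, the alpha-E chain that pairs with beta-7 to bind E-cadherin, read 68, under the limit while Itgb7 passed it. Itga7 read -41 and the epithelial beta-4 chain Itgb4 -110. The adaptor Itgb1bp1, which binds the tail of beta-1, read 22. For LFA-1 and the alpha-E beta-7 integrin, the 2 chains of a receptor were thus split between measured and not measured. A level under the limit is not a measure of absence, since a probe set may read its gene poorly.

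**Figure D3:**
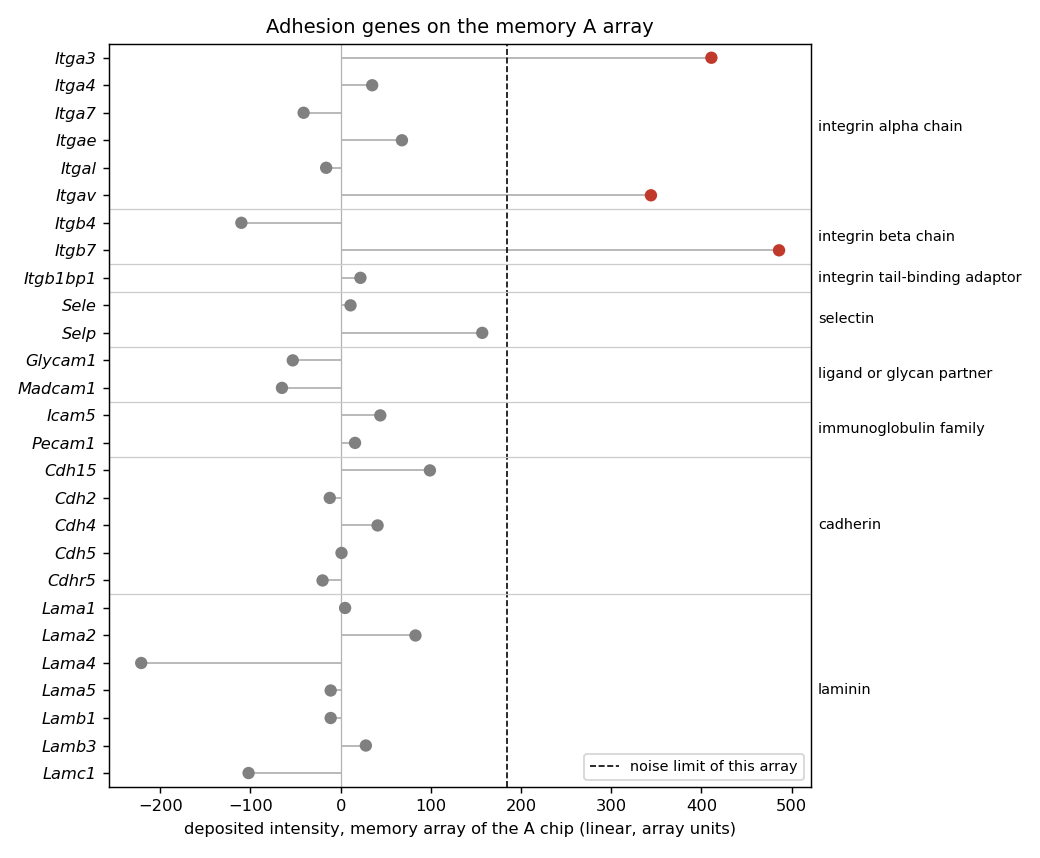
Deposited intensity (linear, x axis) of the 27 adhesion genes on the memory array of the A chip, by role; the dashed line is that array's noise limit of 184 and red points lie above it. Itga3, Itgav and Itgb7 lie above the limit, and the other 24 range from -221 to 157.

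The selectins themselves gave no clear signal. Selp, the P-selectin of platelets and endothelium, read 157 and 144 through its pair of probe sets on the memory A array, just under the limit. Sele, the E-selectin of inflamed endothelium, read 11. Both lie on the A chip alone, so no naive level is available.

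Selplg, which encodes the selectin ligand PSGL-1 of leukocytes, read 2290 in memory and 3536 in naive. The naive array was 1.54-fold higher, a log2 ratio of -0.63, short of the 2-fold limit. The ratio kept its sign under every other setting in which the gene was measured, and it shrank to -0.48 with median-ratio scaling, -0.37 with quantile and -0.17 with intensity-dependent normalization. It passed when the threshold was lowered to 1.5-fold, at which 15.4% of all measured genes were called lower.

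The other mucins and glycan partners were under the limits. Cd44, the hyaluronan receptor used to mark antigen-experienced T cells, had a pair of probe sets that read 45.7 and 4.03, and 10.9 and 34.3, in memory and naive. Spn, which encodes the T cell mucin CD43, read 87.3 and 67.5. Neither gene could be compared at these levels, and the data say nothing of the CD44 difference known for memory cells. Glycam1 and Madcam1, mucins of lymph node and gut vessels, were not measured either. Glycam1 read 120 and 265 on the B chip and -53 on the memory A array, and Madcam1 read -65.

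Cd48 and Icam1 were the immunoglobulin-family members measured. Cd48, a ligand of CD2 and 2B4 on most blood cells, read 699 in memory and 646 in naive, a log2 ratio of 0.11. The arrays barely differed. Icam1, the inducible ligand of LFA-1, read 299 in memory, under the floor, and 491 in naive. The naive reading was thus at least 1.16-fold higher, with both readings near the floor. Icam2, the constitutive LFA-1 ligand, read 394 and 377, just under the floor on both arrays. Cd2, the T cell receptor for CD48, read 238 and 153, likewise under it. Pecam1 (CD31) and the neuronal Icam5 were under the limit on the memory A array, at 16 and 44.

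Of 11 cadherin-family genes, 1 was measured. Cdh1, which encodes E-cadherin, read 519 in memory and -6.05 in naive. The memory value lay above the floor and the naive value at about 0, so the memory reading was at least 1.23-fold higher. That bound is small because the memory value was itself near the floor. With the floor halved the bound became 1.30 on the log2 scale and Cdh1 was called higher. The other 6 cadherins of the B chip (Cdh3, Cdh6, Cdh9, Cdh10, Cdh11 and Cdh15) ranged from 21.8 to 101 in memory and from -43.3 to 84.6 in naive. The 5 on the memory A array (Cdh2, Cdh4, Cdh5, Cdh15 and the cadherin-related Cdhr5) ranged from -20 to 99. Cdh5, the VE-cadherin of endothelium, read 1 and -65 through its pair of probe sets.

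Of 8 laminin chains, 1 was measured, in the other direction. Lama3, the alpha-3 chain of epithelial laminins, read 148 in memory and 575 in naive, so the naive reading was at least 1.36-fold higher. A companion probe set read 4.96 and -66.5, under the floor on both arrays, and the pair thus disagreed. With the floor halved the first gave a bound of -1.44 on the log2 scale and was called lower in memory. Lama5 read -98.3 and 43.3 on the B chip and -11 on the memory A array. The other chains on that array (Lama1, Lama2, Lama4, Lamb1, Lamb3 and Lamc1) ranged from -221 to 83, all under the limit. Taking both chips, 10 of the 47 adhesion genes were above a limit somewhere and 37 were not. The matching share over all genes of both chips is not given here, so nothing is read from this count.

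**Figure D4:**
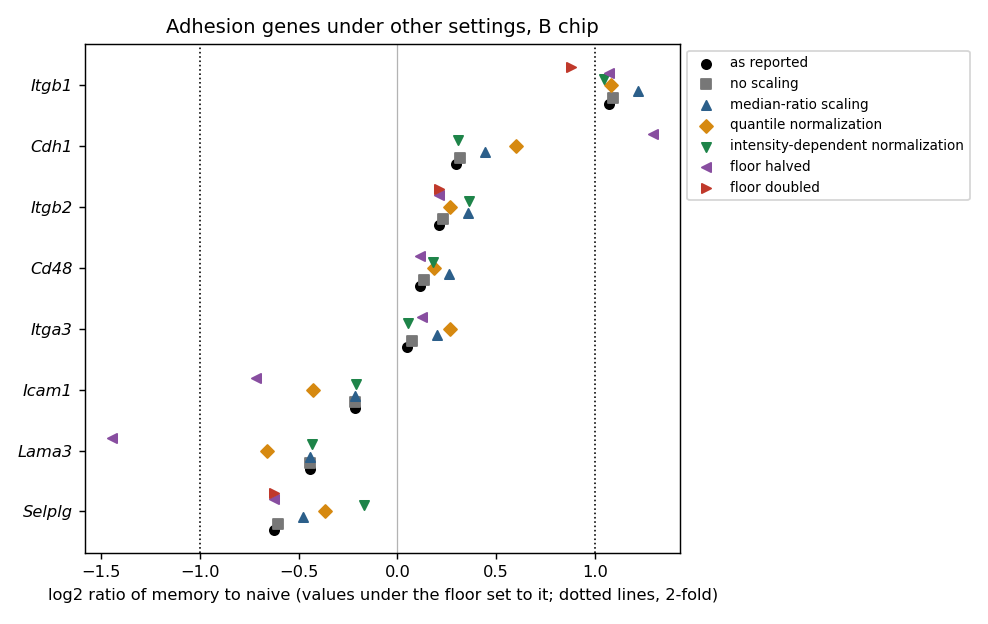
Log2 ratio of memory to naive (x axis) for the 8 measured adhesion genes of the B chip, with 1 symbol for each scaling or floor; dotted lines mark 2-fold. Itgb1 lies beyond 2-fold except with the floor doubled, Cdh1 and Lama3 pass it only with the floor halved, and no gene changes sign.

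The 5 adhesion genes with probe sets on both chips can be set side by side, without a ratio between chips. Itga3 was above the limit on the memory A array (411) and, through the higher of its pair of probe sets, on the memory B array (438). The companion B probe set read 120 in memory, under the floor. Itga4, Cdh15, Glycam1 and Lama5 were under the limits on the memory A array and on both B arrays. By its highest probe set, each of the 5 thus fell on the same side of the limit on the memory arrays of the 2 chips. Of all genes, 26.2% were above the floor on at least 1 B array and 29.5% above the limit on the memory A array. A place under the limits is therefore common, and nothing is read from this match.

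The machinery around these receptors was read through 4 lists of genes: integrin activation and adaptors, integrin ligands and matrix, synthesis of selectin ligands, and catenins with junction adaptors. Of their 119 genes, 41 were on the B chip and 12 were measured (26.2% of all genes of the chip were), with 1 called higher, 0 lower and a median log2 ratio of 0.05. The shares of all measured genes given above (8.87% and 8.66%) are the background.

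The gene called was Zyx, in the integrin activation list. Zyxin, a protein of focal adhesions and actin fibres, read 1358 in memory and 624 in naive, 2.18-fold higher. The other 5 measured genes of that list were within 2-fold. Fermt3, which encodes the kindlin-3 that activates beta-1 and beta-2 integrins in blood cells, read 1168 and 648, a log2 ratio of 0.85. Tln1, the talin that joins integrin tails to actin, read 784 and 652, and Cd47, an integrin-associated protein, read 1966 and 1553. On the memory A array Tln1 read 169, under the limit. The tetraspanins Cd81 and Cd53, membrane organisers that associate with integrins, went in different directions, with log2 ratios of 0.63 and -0.42. Of the 6 genes, 5 thus had positive ratios and 1 a negative one.

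With the floor doubled, the ratio of Zyx became 0.68 and its call was lost. With quantile normalization Cd81 (1.18) also passed 2-fold.

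Of 20 activation list genes on the memory A array, 10 were above the limit, where 29.5% of all genes of the chip were. They included the adaptors Fyb (1655), which links the T cell receptor to integrins, Apbb1ip (921), a bridge from RAP1 to talin, and Skap2 (646). Actn1 (913), Ptk2b (525), Lims1 (523), Fyn (353), Vav1 (463), Cd47 (557) and the tetraspanin Cd82 (2082) passed as well. On the B chip Vav1 was under the floor on both arrays, at 316 in memory and 252 in naive. Rap1a, the small GTPase that switches integrins on, read 124, under the limit.

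Of the ligand and matrix list 3 of 18 genes on the B chip were measured, and none was called. Vcam1, the ligand of VLA-4, read 4443 in memory and 4217 in naive, a log2 ratio of 0.08. That near equality depended on the scaling, as the ratio was 1.43 with quantile and 1.10 with intensity-dependent normalization, past 2-fold in both. The basement membrane proteoglycan Hspg2 read 459 and 613, and Fbln2 260 and 475, the former under the floor. On the memory A array Hspg2 read -39, under the limit. Fn1, the fibronectin that beta-1 integrins bind, read 286 and 135, under the floor on both arrays. The fibrillar collagens Col1a1, Col1a2 and Col3a1 ranged from -10.9 to 147 in memory and from -9.07 to 194 in naive. Of 14 list genes read by the memory A array, 2 passed its limit: Col5a1 at 342 and Col1a1 at 194, the latter close to it.

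No gene of selectin ligand synthesis was measured on the B chip, where 6 of the 20 were present, and 1 of 6 passed on the memory A array (B4galt1, a galactosyltransferase, at 410). These list counts are small beside the shares of 26.2% and 29.5% for all genes, and nothing is read from them. Gcnt1, which builds the branched sugars that selectins bind, read 10.9 in memory and 218 in naive. Of the catenin list, Cdc42, Iqgap1 and Ctnnd1 were measured, with log2 ratios of -0.21, 0.03 and -0.52, and none was called. The sign of Cdc42 was not stable, since quantile normalization gave 0.31 and intensity-dependent normalization 0.30. On the memory A array Ctnna1 read 464, above the limit, and Ctnnb1, the beta-catenin that cadherins hold, read 7.

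**Figure D5:**
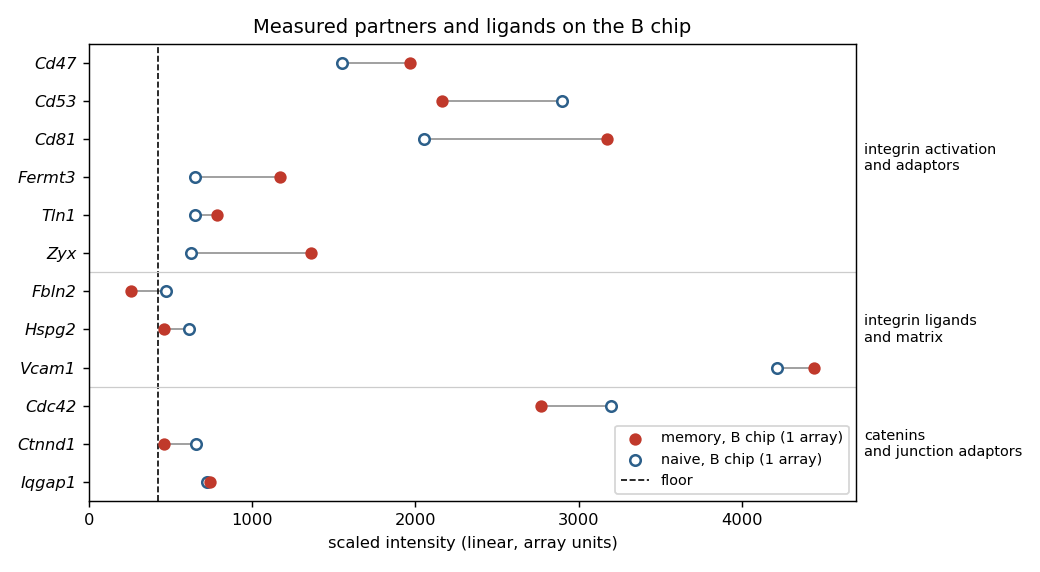
Scaled intensity (linear, x axis) of the 12 measured genes of the related lists on the B chip; filled points are the memory array, open points the naive array, and the dashed line is the floor of 423. Zyx shows the one difference beyond 2-fold, and Vcam1 reads 4443 and 4217 with this scaling, though past 2-fold with quantile or intensity-dependent normalization.

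Several of these genes are also expressed by other cells, so markers of those cells were read on the same arrays. Itgb1, Itgb2, Selplg, Fermt3, Zyx and Vcam1 are known in macrophages. All 11 macrophage and monocyte markers on the B chip were measured, with 6 called higher in memory and 0 lower. Of all measured genes 8.87% were called higher and 8.66% lower, and of those bright enough to be called 16.5% and 16.1%. On the memory A array 5 of 7 markers passed the limit, where 29.5% of all genes did. Mpeg1, which read 3665 and 954 on the B chip, was under it there at 96, as was Fcgr1 at 113. The summed level of the 11 on the B chip was 28398 in memory and 16409 in naive, and their median log2 ratio was 1.14. Csf1r, the receptor that macrophages depend on, read 2723 and 1090. Of the 11 markers, 10 were above the floor in both preparations, Apoe being under it in naive (260). The list's median was positive, as were the log2 ratios of Itgb1 (1.07), Zyx (1.12), Fermt3 (0.85), Itgb2 (0.21) and Vcam1 (0.08). That of Selplg was negative (-0.63). The part of these cells in these ratios was not tested. Vcam1 belongs to both the macrophage and the ligand list.

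Markers of vessels and platelets, which carry P-selectin, Pecam1 and Cdh5, were at the noise level. Of the endothelial list 0 of 5 genes on the B chip were measured, with values from -43.7 to 206 in memory and from -28.2 to 265 in naive. None of 9 passed on the memory A array, where they ranged from -65 to 157. However, 6 of those 9 are adhesion genes described above; the other 3 (Tek, Flt1 and Emcn) ranged from -1 to 84. On the B chip the 4 that are not adhesion genes reached 206 in memory and 227 in naive. Of 10 platelet genes only Gp5 (-14.9 and 51.4) and Selp could be read, so that list is hardly covered. In the stromal list Thy1, which T cells also carry, was the 1 gene measured of 9 on the B chip. On the memory A array 1 of 5 stromal genes passed the limit, Col1a1 at 194.

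The T cell label was checked against CD8 T cell genes. Of 6 on the B chip 4 were measured, with 0 called higher and 1 lower in memory. Over the whole chip 26.2% of genes were measured, and of these 8.87% were called higher and 8.66% lower. The 1 call is not read as a result. The summed level of the 6 was 4965 in memory and 8529 in naive. The median log2 ratio of the 4 was -0.23, and 1 of them had a positive ratio. That gene, Cd8a, the CD8 alpha chain, read 498 and 352, the naive value under the floor. Cd3g read 254 and 502, the memory value under the floor. Cd3d read 959 and 1115, above the floor on both arrays, and Thy1 read 2848 and 6184. Without Thy1 the sums were close, at 2117 in memory and 2344 in naive. Of 3 such genes on the memory A array, Cd3e (317) and Cd247 (240) were above the limit and Cd5 (110) was not. On the B chip Cd247 and Cd2 were under the floor on both arrays.

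Markers of other cells were read as well. The shares over all genes given above (26.2% measured, and of these 8.87% called higher and 8.66% lower) are their background. With so few genes in each list, nothing is read from the calls below. Granulocyte genes were measured in 3 of 4 cases with no call (summed level 7772 in memory, 8774 in naive). Dendritic cell genes were measured in 4 of 5, with 1 higher and 1 lower (10830 and 16259). Without Cd74, the lower one (3068 and 9507), the dendritic sums were 7762 in memory and 6752 in naive, the other way round. NK genes were measured in 3 of 4, with 1 lower (1829 and 3974), and Itga2, the integrin chain used to mark NK cells, was not measured. Red cell genes were measured in 4 of 4, with 1 higher and 2 lower (6995 and 18198).

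The selenium-related genes that share the spelling have no known role in adhesion. Selenop, a secreted selenium carrier, read 2475 in memory and 1736 in naive through one probe set (log2 ratio 0.51) and 187 and 273, under the floor, through another. Selenot read 498 and 452. Selenbp1 and Selenos were under the floor on both B arrays. On the memory A array Selenow (1775) and Selenok (563) were above the limit, and Selenof, Selenot and Selenbp1 read 110, 65 and 57. None of the 4 on the B chip was called, and no call was made for those on the A chip alone.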

How the data were processed

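Per the labels, Trizol RNA of each preparation was turned into cRNA and hybridised. The deposited values are linear array intensities, 1 per probe set. A genome build and the software with its settings were not given in the sources used here. Each array's 2% trimmed mean was 150.2 on the A chip and 150.3 or 150.4 on the B chip, so the values appeared scaled already.

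Groups came from the sample titles and chips from the tables. Symbols came from the platform annotation, checked against RefSeq (GRCm38.p6), which changed 0. Probe sets with several symbols or none (197 and 827 of the A chip, 27 and 4567 of the B chip) were not named. On the B chip, without 55 control probe sets, both arrays were scaled to their mean trimmed mean (factors 0.993 and 1.01). The floor was set from the negative values of the noisier array, at the 95th percentile of their size, and values under it were set to it. A fold against the floor is a lower bound. The highest probe set stood for a gene. The memory A values were used as deposited.

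The genes, lists and settings were chosen with earlier results of these data known. All measured adhesion genes are named, with called list genes and up to 3 others of each list; further list members were chosen after their values were seen. Alternatives were other scalings (lowess span 0.4), floors, thresholds and probe set rules. Python 3.11.15, pandas 2.3.3 and statsmodels 0.14.6 were used.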

Additional observations from a re-analysis of the deposited data

Results flagged for a closer look

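The naive A column, which entered no comparison, listed 7 of the 27 adhesion gene names above its noise limit of 296 (25.9%, against 21.0% of all 4775 genes of that chip). None of the 7 was above the limit on the memory A array, where only 3 of the 27 were. The same overlap over all genes is not given here, so nothing is read from it. Because this column hardly followed its gene names, these values are not given as gene levels.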

How the results depend on the processing

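The marker sums without Cd74, Thy1 or the adhesion genes were added after seeing the data. No array could be left out, since each group had 1 array per chip. The count of called adhesion genes on the B chip was 1 higher (Itgb1) and 0 lower. It was the same without scaling and with median-ratio, quantile or intensity-dependent scaling. It was also the same with the mean of a gene's probe sets. That mean left 6 adhesion genes measured in place of 8, without Itga3 and Lama3. On the memory A array 2 adhesion genes passed with it, in place of 3. With the floor halved the count of called genes was 2 higher (Itgb1 and Cdh1) and 1 lower (Lama3) among 11 measured adhesion genes. Of all 751 genes measured at that floor, 6.92% were called higher and 11.1% lower. Of the related lists 21 genes were measured in place of 12. With the floor doubled 3 adhesion genes were measured and 0 called, and the ratio of Itgb1 was 0.88. There 7 related genes were measured and 0 called. Of all genes measured at that floor, 6.02% were called higher and 9.64% lower. Without class-letter probe sets 0 adhesion and 0 related genes were measured on the B chip and 0 adhesion genes passed on the memory A array, because all of them are read by such probe sets. Over the whole B chip the measured genes fell from 462 to 50 in that setting. A 1.5-fold threshold added Selplg as 1 lower gene and gave 3 higher related genes (Zyx, Fermt3 and Cd81). At that threshold 13.9% of all measured genes were called higher and 15.4% lower. A 3-fold threshold, or a higher array at least 4 times the floor, left 0 higher adhesion genes and 0 higher related genes. The ratio of Itgb1 was still 1.07, and 2.60% and 3.25% of all measured genes were called higher. Requiring only 1 times the floor cannot change a call, since a 2-fold ratio to the floor already needs more. Quantile normalization gave 3 higher of 13 measured related genes, and intensity-dependent normalization gave 2 of 12. Of all measured genes 9.72% were called higher in each case. The cause of the added calls was not tested. The median over all measured genes, -0.12, moved to -0.0048 with median-ratio scaling and -0.02 with quantile normalization, and that of the adhesion genes stayed between 0.08 and 0.22. With the limit of the memory A array halved 5 adhesion genes passed it in place of 3, adding Selp and Cdh15. Signal over background limits the rest: 17 of 25 adhesion genes on the B chip and 24 of 27 on the memory A array were not above it.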
